A study of Mus musculus with 8 samples.

Results

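The SREBP regulators and processing machinery comprise 7 genes: Srebf1, Srebf2, Scap, Insig1, Insig2, Nr1h3 and Mbtps1. They were followed over 8 livers through every probe set that the array annotation pairs with exactly 1 of these symbols. All 7 genes were found, among 18193 genes with such a probe set, and they were covered by 13 of the 45037 probe sets tested. Liver RNA came from male KK-Ay mice, an obese mouse model of type 2 diabetes, aged 14 weeks. The 4 PD mice had eaten the AIN93G diet with 1 g of persimmon peel (PP) extract per kg for 8 weeks, and the 4 CD mice had eaten the AIN93G diet alone. Each mouse gave 1 Affymetrix GeneChip array of the mouse genome. The mice were chosen from 6 PD and 7 CD mice as those with plasma ketone bodies near the average of their diet. All mice carried the same obese background, so no lean liver stands beside them.

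SREBPs are transcription factors that are made as membrane proteins of the endoplasmic reticulum. Scap, a sterol sensor, escorts them in COPII vesicles to the Golgi, where the site-1 protease encoded by Mbtps1 and then the site-2 protease encoded by Mbtps2 release the part that enters the nucleus. Insig1 and Insig2 hold Scap back when sterols are plentiful. In liver SREBP-1c, a product of Srebf1, drives the genes of fatty acid synthesis, and SREBP-2, the product of Srebf2, drives those of cholesterol synthesis and uptake. Nr1h3 encodes LXRα, a receptor for oxysterols that raises Srebf1 transcription, and Insig1 is itself a target of SREBPs. The arrays measured mRNA and not the cleavage or the nuclear amount of these proteins.

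The 250 bases before 13 annotated starts of the 7 genes were read from RefSeq (GRCm38.p6) because Srebf1, Srebf2 and Insig1 are known to be driven by SREBPs themselves, which bind sterol regulatory elements (SREs) beside the factors NF-Y and Sp1. The windows were searched on both strands for CACGTG (E-box), CCAAT (NF-Y), GGGCGG (Sp1), TCACNCCAC (SRE-like) and TCACCC (the start of a classical SRE, a search added after the sequences had been seen). TCACCC lies inside TCACNCCAC where N is C, and the other motifs are counted separately. Of 32851 windows of all genes, 6.02% held CACGTG, 33.8% CCAAT, 32.7% GGGCGG, 1.05% TCACNCCAC and 13.8% TCACCC. Of the 13 member windows, 2 held CACGTG, 5 CCAAT, 8 GGGCGG, 0 TCACNCCAC and 7 TCACCC. The SRE start stood together with the NF-Y and the Sp1 motif in 3 member windows, 1 each of Srebf1, Srebf2 and Insig1, and in 1.49% of all windows, a combination that was also chosen after the sequences had been seen. These 3 windows are printed for that reason, and the most upstream Insig2 window is printed as that of the other Insig gene. They run 5′ to 3′ on the strand of the gene, with capitals for matches on either strand, so that ATTGG is CCAAT and GGGTGA is TCACCC as read from the opposite strand. The Srebf1 window is chr11:60210472-60210721 (minus strand), the Srebf2 window chr15:82147019-82147268 (plus strand), the Insig1 window chr5:28071162-28071411 (plus strand) and the Insig2 window chr1:121332590-121332839 (minus strand).
Srebf1: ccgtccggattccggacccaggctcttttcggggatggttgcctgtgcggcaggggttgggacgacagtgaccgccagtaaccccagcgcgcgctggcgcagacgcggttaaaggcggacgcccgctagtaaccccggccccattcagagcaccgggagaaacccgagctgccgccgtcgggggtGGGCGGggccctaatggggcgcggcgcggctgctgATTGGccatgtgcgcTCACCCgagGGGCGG
Srebf2: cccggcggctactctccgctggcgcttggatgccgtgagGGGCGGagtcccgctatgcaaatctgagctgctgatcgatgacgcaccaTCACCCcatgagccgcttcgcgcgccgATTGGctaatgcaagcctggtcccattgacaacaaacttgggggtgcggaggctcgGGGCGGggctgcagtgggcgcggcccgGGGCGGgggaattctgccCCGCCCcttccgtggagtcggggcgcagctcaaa
Insig1: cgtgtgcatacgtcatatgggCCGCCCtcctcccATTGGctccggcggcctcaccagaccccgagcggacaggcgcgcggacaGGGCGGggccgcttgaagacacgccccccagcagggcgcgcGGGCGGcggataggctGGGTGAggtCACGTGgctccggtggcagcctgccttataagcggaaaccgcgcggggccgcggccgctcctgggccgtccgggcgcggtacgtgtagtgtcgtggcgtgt
Insig2: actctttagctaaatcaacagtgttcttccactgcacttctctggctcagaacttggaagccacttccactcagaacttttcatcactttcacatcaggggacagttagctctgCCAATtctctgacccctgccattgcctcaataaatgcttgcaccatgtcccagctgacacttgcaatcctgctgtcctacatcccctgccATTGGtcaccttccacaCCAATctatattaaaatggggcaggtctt
In the Insig1 window the TCACCC match began 110 bases and the E-box 101 bases before the start. In the Srebf1 window the TCACCC match began 15 bases before the start, between a CCAAT box at 30 bases and a GGGCGG box at 6 bases. The Insig2 window held CCAAT 3 times, at 136, 46 and 29 bases, and none of the other letters searched. The other 2 Insig2 windows held TCACCC, at 84 and 44 bases, and GGGCGG, at 6 and 128 bases, and no CCAAT. A match is a run of letters and not a measured binding site.

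**Figure D1:**
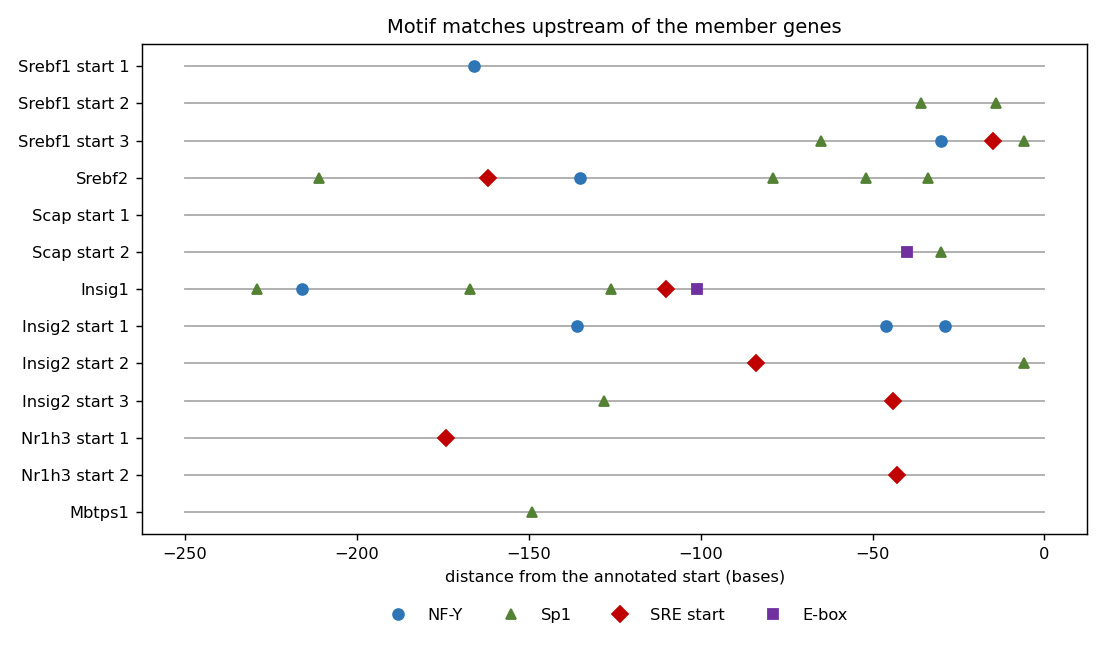
Motif matches in the 250 bases before each of the 13 annotated starts of the 7 genes. The x axis gives the distance from the start in bases, each row is 1 start, and the symbols mark the first base of each match. TCACCC (SRE start), CCAAT (NF-Y) and GGGCGG (Sp1) stand together in 3 rows: the third Srebf1 start, Srebf2 and Insig1.

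None of the 13 member probe sets was called higher or lower in PD than in CD mice. The rank product, the test of the study, called 90 of 45037 probe sets higher in PD mice (0.2%) and 117 lower (0.26%) at a false discovery rate (FDR) under 0.1, and the lowest FDR of a member was 0.339, for an Insig2 probe set. limma called 0 probe sets in all (0%) at an adjusted p under 0.1. At an unadjusted p under 0.05 limma passed 1642 probe sets (3.65%), of which 1 was a member, Mbtps1 probe set 1431385_a_at. The values of the PD and CD mice did not overlap in 937 probe sets (2.08%, of which 461 or 1.02% were lower in PD mice), and that same Mbtps1 probe set was the only member among them. A share of 1 in 13 is 1 probe set and is no result about the group. The log2 differences, given throughout as PD minus CD, ran between −0.20 and 0.04 over the 13 probe sets. They were negative in 9 and positive in 4, with a median of −0.05, against −0.00 over all probe sets, of which 52.9% were negative.

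**Figure D2:**
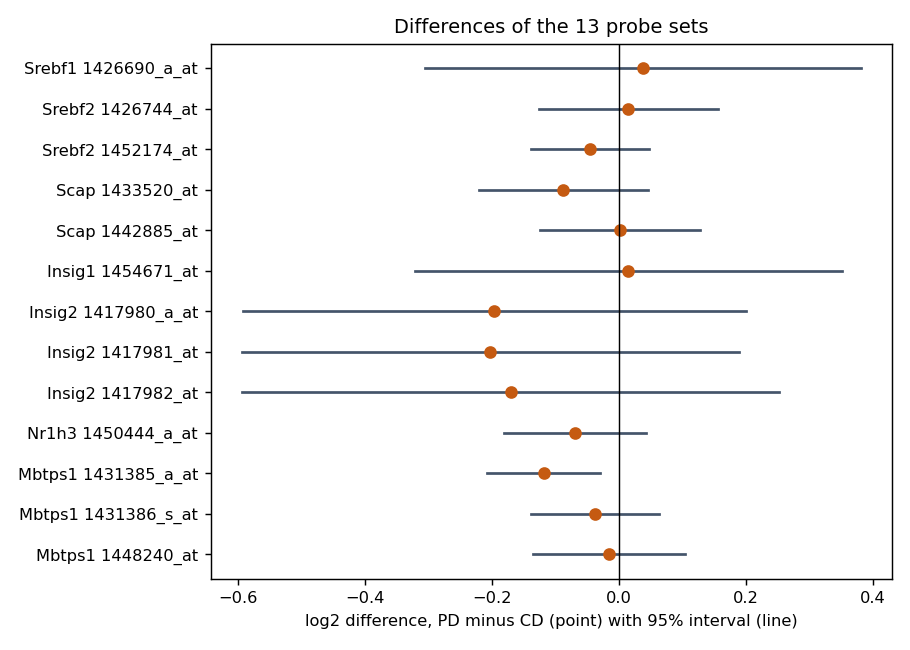
Log2 difference (PD minus CD) of each of the 13 probe sets, with its 95% interval from limma (n = 4 mice per diet). The interval of 1 probe set, Mbtps1 1431385_a_at, leaves out 0, and the widest intervals are those of Insig2, Srebf1 and Insig1.

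Srebf1 was measured by 1 probe set (1426690_a_at). Its log2 values were 11.74, 12.41, 12.29 and 11.73 in the PD mice, against 12.08, 11.83, 11.89 and 12.22 in the CD mice. PD replicates 2 and 3 were above all CD mice and PD replicates 1 and 4 below all of them, so the PD values enclosed the CD values. The means were 12.05 ± 0.36 in PD and 12.01 ± 0.18 in CD mice (SD, n = 4 each), a difference of 0.04 (SE 0.16; exact permutation test, two-sided, p = 0.857). The 95% interval of that difference runs between −0.31 and 0.38, or 0.81-fold to 1.30-fold, so changes within that range are not excluded by these mice. The smallest p that 4 against 4 mice allow in this test is 0.0286. The sign of the difference turned without PD replicate 2 (−0.08), PD replicate 3 (−0.04) or CD replicate 2 (−0.02).

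Srebf2 had 2 probe sets that did not move together (Pearson r = −0.27 over the 8 mice, as a description). Probe set 1452174_at read 7.69, 7.68, 7.68 and 7.77 in PD mice, against 7.76, 7.76, 7.73 and 7.76 in CD mice. PD replicates 1, 2 and 3 were below all CD mice and PD replicate 4 was above them. The difference was −0.05 (95% interval −0.14 to 0.05; exact permutation test, two-sided, p = 0.143). Probe set 1426744_at read 7.22, 7.38, 7.22 and 7.25 in PD mice, against 7.34, 7.19, 7.35 and 7.13 in CD mice, a difference of 0.02 (95% interval −0.13 to 0.16). Neither probe set passed a test. Their intervals were narrower than that of Srebf1, but both were dimmer, with means over all mice of 7.73 and 7.26, against 12.03 for Srebf1. How far 2 dimmer probe sets that did not move together bound a change of Srebf2 mRNA was not tested.

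Insig1 (1454671_at), the retention protein whose gene SREBPs induce, was spread among PD mice much like Srebf1. Its values were 11.01, 11.82, 11.75 and 11.46 in PD mice, against 11.61, 11.38, 11.38 and 11.62 in CD mice. PD replicates 2 and 3 were again the highest of all mice, and PD replicate 1 was the lowest. The means were 11.51 ± 0.37 in PD and 11.50 ± 0.14 in CD mice (SD, n = 4 each), with a difference of 0.02 (95% interval −0.32 to 0.35; exact permutation test, two-sided, p = 0.971). Its sign turned without PD replicate 2 (−0.09), PD replicate 3 (−0.07), CD replicate 2 (−0.02) or CD replicate 3 (−0.02). Between its lowest and highest PD mouse Insig1 differed 1.75-fold, and between its lowest and highest CD mouse 1.18-fold.

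Insig2, the second retention protein, had 3 probe sets that followed each other closely over the 8 mice (Pearson r between 0.933 and 0.989, as a description, since they share the same RNA). Probe set 1417982_at read 11.81, 10.99, 11.62 and 11.53 in PD mice, against 12.05, 11.27, 11.85 and 11.47 in CD mice. The lowest mouse was PD replicate 2 and the highest CD replicate 1, and the diets overlapped over most of their range. The difference was −0.17 (SE 0.19; 95% interval −0.59 to 0.25; exact permutation test, two-sided, p = 0.571), and −0.20 for each of the other 2 probe sets (exact p = 0.429 each). The 3 differences stayed below 0 whichever mouse was left out, but that of 1417982_at was −0.00 once PD replicate 2 had been left out and −0.04 without CD replicate 1. Insig2 had the lowest rank product FDR of the 7 genes, between 0.339 and 0.437, and its lowest with 1 mouse left out was 0.105 (1417981_at, without PD replicate 1).

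Scap, the escort, was nearly constant among CD mice. Probe set 1433520_at read 10.76, 10.49, 10.75 and 10.67 in PD mice, against 10.76, 10.75, 10.74 and 10.76 in CD mice. PD replicates 2 and 4 were below every CD mouse, and PD replicates 1 and 3 lay within the CD range. The SD was 0.12 in PD and 0.01 in CD mice (n = 4 each), a contrast in spread that was not tested. The difference was −0.09 (95% interval −0.22 to 0.05; exact permutation test, two-sided, p = 0.2) and shrank to −0.03 without PD replicate 2. The second Scap probe set (1442885_at), a dim one, differed by 0.00 (95% interval −0.12 to 0.13).

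Mbtps1, the site-1 protease, was measured by 3 probe sets, and the brightest of them (1448240_at) did not change detectably. It read 9.54, 9.60, 9.56 and 9.52 in PD mice, against 9.51, 9.47, 9.68 and 9.63 in CD mice, a difference of −0.02 (95% interval −0.14 to 0.10). Probe set 1431385_a_at read 6.28, 6.26, 6.31 and 6.30 in PD mice, against 6.37, 6.43, 6.43 and 6.39 in CD mice. All PD mice were below all CD mice there. The difference was −0.12 (SE 0.04; exact permutation test, two-sided, p = 0.0286, the smallest possible; limma p = 0.014, adjusted p = 0.998 over all probe sets). This probe set was dim, with 14.8% of all probe sets dimmer, and its spread between mice of 1 diet (SD 0.02) was smaller than that of all but 0.449% of probe sets. The third probe set (1431386_s_at) differed by −0.04 (95% interval −0.14 to 0.06). The intervals of the 3 probe sets overlapped, that of 1431385_a_at being −0.21 to −0.03, and whether their differences disagree was not tested.

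Nr1h3 (1450444_a_at), which encodes LXRα, read 9.17, 9.09, 9.23 and 9.10 in PD mice, against 9.22, 9.14, 9.22 and 9.29 in CD mice. PD replicates 2 and 4 were below all CD mice, and PD replicate 3 was above 3 of them. The difference was −0.07 (SE 0.05; 95% interval −0.18 to 0.04; exact permutation test, two-sided, p = 0.2). It stayed negative whichever mouse was left out, between −0.10 and −0.04.

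**Figure D3:**
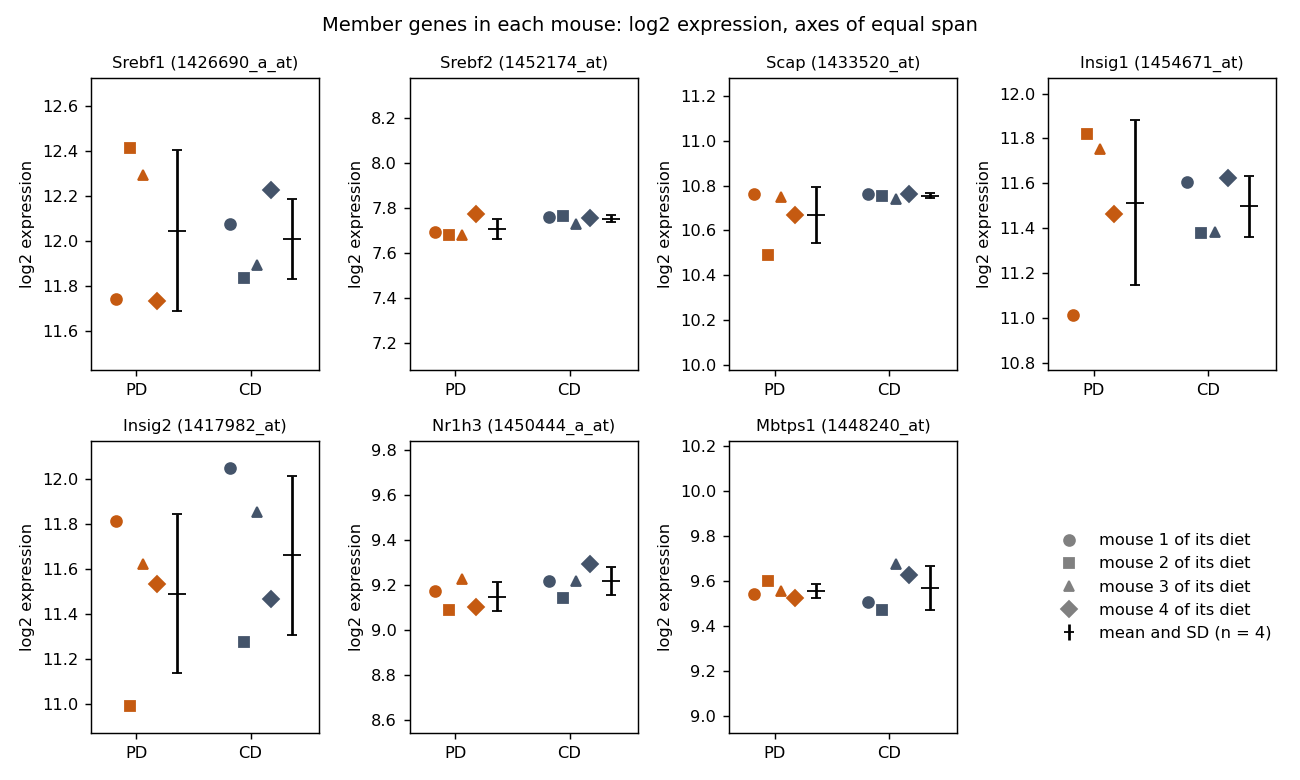
Log2 expression of the 7 genes in each mouse, for the brightest probe set of each gene, with PD mice on the left and CD mice on the right of each panel. Symbols number the mice within a diet, black marks are means with SD (n = 4), and all panels span the same range. Srebf1, Insig1 and Insig2 vary widely between mice of the same diet, and the other 4 genes vary less.

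The 7 genes also differed in how far they varied between mice of the same diet. Pooled over both diets, the SD between mice was 0.28 for Srebf1, 0.28 for Insig1 and between 0.33 and 0.35 for the Insig2 probe sets, against a median of 0.08 over all probe sets. These 5 probe sets were more variable than at least 98.2% of all probe sets. The other 8 had an SD between 0.02 and 0.10, which is near or below the median. Among these 8, Srebf2 1426744_at was more variable than 64.7% and Scap 1433520_at than 57.3% of all probe sets, and Srebf2 1452174_at than 2.18%. The SREBP-1 gene and both retention genes thus had the widest spread of the 7. By the brightest probe set of each gene, PD replicate 2 stood at an extreme of all 8 mice in 6 genes: it was the highest in Srebf1 and Insig1 and the lowest in Insig2, Scap, Nr1h3 and Srebf2, although it was the highest on the other Srebf2 probe set. In bulk liver fewer cells of a type and less RNA per cell cannot be told apart.

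**Figure D4:**
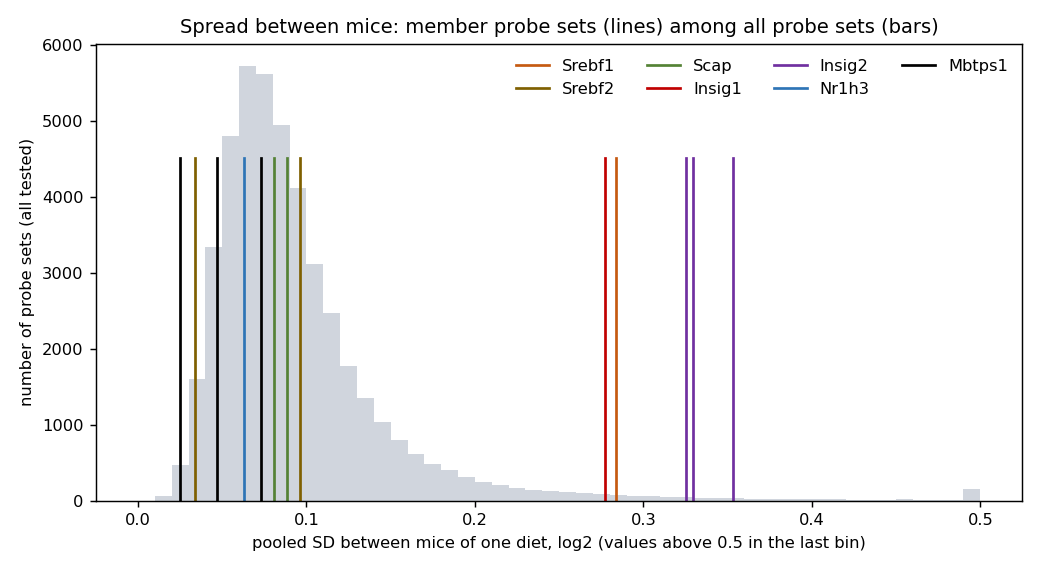
Pooled SD between mice of the same diet (x axis, log2) for all 45037 probe sets (bars, number of probe sets) and for the 13 member probe sets (coloured lines). The lines of Srebf1, Insig1 and Insig2 lie between 0.28 and 0.35, in the right tail, and the lines of the other 4 genes lie at 0.10 or below.

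Srebf1 and Insig1 were ordered alike between mice. In CD mice both ran highest in CD replicate 4, then 1, 3 and 2, and in PD mice both were highest in PD replicate 2 and then 3. Over the 8 mice Pearson's r was 0.868 (exact permutation p = 0.00394) and Spearman's rho 0.857 (exact permutation p = 0.0107). The relation did not pass the correction over the 35 relations computed (adjusted exact p = 0.138 for r and 0.375 for rho). It had the same sign within each diet, with r = 0.861 over the 4 PD and 0.947 over the 4 CD mice, and r was 0.869 after each diet's mean had been removed. Without PD replicates 2 and 3, the mice farthest from the median of Srebf1, r was 0.737 (exact permutation p = 0.0986). Among all probe sets with 1 symbol, ordered by their r with Srebf1, Insig1 had rank 48, so many other genes followed Srebf1 as closely.

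Of the 35 relations, the 21 pairs of members and the 14 of a member with the mean of a target list, 5 had an unadjusted p under 0.05 for r and 0 passed the correction. Insig1 followed the mean of 17 SREBP-2 sterol genes with r = 0.787 (exact permutation p = 0.0173, adjusted p = 0.302) and rho = 0.810 (exact permutation p = 0.0218, adjusted p = 0.381). Without PD replicates 1 and 2 this r was 0.629 (exact permutation p = 0.21), and within diets it was 0.946 in PD and 0.682 in CD mice. Insig1 followed the mean of 15 SREBP-1 lipogenic genes with r = 0.716 (exact permutation p = 0.0412, adjusted p = 0.322), rho = 0.690 (exact permutation p = 0.0694, adjusted p = 0.486) and r = 0.539 without those 2 mice, and the r was 0.882 within PD and 0.237 within CD mice. Srebf1 followed the sterol mean less closely, with r = 0.588 (exact permutation p = 0.127, adjusted p = 0.679) and rho = 0.548 (exact permutation p = 0.171, adjusted p = 0.72), and r was −0.00 without PD replicates 2 and 3, so over all mice it rested on those 2. Within diets it was 0.679 over the 4 PD and 0.578 over the 4 CD mice, and 0.652 after each diet's mean had been removed.

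Scap went with Insig2 (r = 0.707, exact permutation p = 0.0437, adjusted p = 0.322; rho = 0.452, exact permutation p = 0.267, adjusted p = 0.72) and with Nr1h3 (r = 0.690, exact permutation p = 0.0461, adjusted p = 0.322; rho = 0.690, exact permutation p = 0.0694, adjusted p = 0.486). Without PD replicates 2 and 4 these r were 0.03 and 0.08, so both relations rested on those 2 mice. Within diets the r of Scap and Insig2 was 0.982 in PD and −0.09 in CD mice, and that of Scap and Nr1h3 was 0.783 in PD and 0.310 in CD mice.

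**Figure D5:**
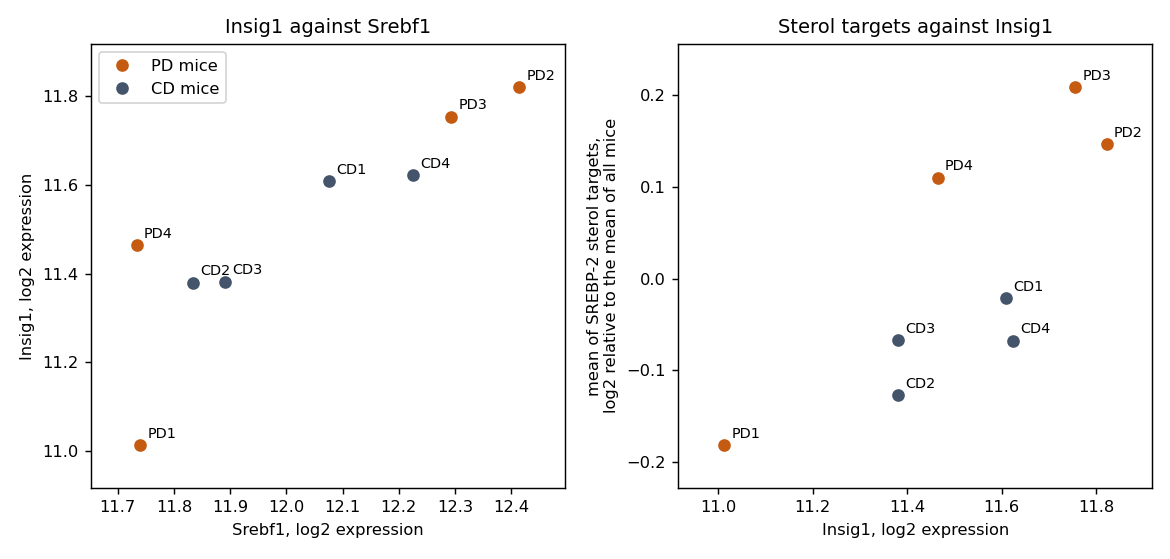
Insig1 against Srebf1 (left, both log2 expression) and the mean of 17 SREBP-2 sterol genes against Insig1 (right, log2 relative to the mean of all mice), with 1 point per mouse and PD and CD mice in different colours. Both panels rise, at r = 0.868 and r = 0.787, and neither passed the correction over 35 relations.

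The probe sets most like Srebf1 over the 8 mice were those of 2310001H17Rik (r = 0.966), Pbsn (r = 0.959) and Tgs1 (r = 0.956), and those most like Insig1 were Ptgr2 (r = 0.976), 4930488N24Rik (r = 0.969) and Pstpip2 (r = 0.959). These r were the highest of all probe sets with 1 symbol and are descriptions with no test. Their own ranges over the 8 mice were small, between 0.16 and 0.37 on the log2 scale, against 0.68 for Srebf1 and 0.81 for Insig1. Those of Pbsn, Tgs1, Ptgr2 and 4930488N24Rik were also dim. They read between 6.04 and 6.72 in all mice, below the lowest array median of 7.09. Whether they carry signal above background was not tested.

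Around the members, the genes that act on the cleavage, retention or breakdown of SREBPs or their partners showed no calls. Of 14 measured partners, which include the site-2 protease gene Mbtps2, the ubiquitin ligase gene Rnf145 and the erlins, 8 were higher and 6 lower in PD mice, with a median difference of 0.01 and 0 called by the rank product or limma (0 at an unadjusted limma p under 0.05). Mbtps2 read 7.90, 8.01, 7.95 and 7.83 in PD mice, against 7.81, 8.01, 8.08 and 7.95 in CD mice, a difference of −0.04. Of 14 genes of the COPII coat, which carries Scap and SREBPs out of the endoplasmic reticulum, 11 were higher and 3 lower, with a median of 0.03, and none was called (0 at an unadjusted limma p under 0.05). Over all genes, each by its brightest probe set, 0.621% were called by the rank product.

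Of 25 measured regulators of Srebf1 transcription, 16 were higher and 9 lower in PD mice, with a median of 0.03 and 0 called. At an unadjusted limma p under 0.05 there were 3, against 3.65% of all probe sets, and they are named here after their values were seen. Sp1, the factor of the GGGCGG box, read 9.43, 9.50, 9.48 and 9.47 in PD mice, against 9.28, 9.26, 9.36 and 9.35 in CD mice, with all PD above all CD mice and a difference of 0.16 (exact permutation p = 0.0286; limma adjusted p = 0.998). Irs2, an insulin receptor substrate, differed by 0.18 and Usf2, an E-box factor, by −0.14, and both had a limma adjusted p of 0.998. Rxra, the partner of LXRα, differed by −0.07. Lpin1, a phosphatidate phosphatase that also acts on SREBP in the nucleus, differed by 0.11 with a 95% interval of −0.46 to 0.69.

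Of 10 measured LXR target genes, 3 were higher and 7 lower, with a median of −0.04 and 0 called. Of these, 2 had an unadjusted limma p under 0.05, against 3.65% of all probe sets, and they are named after their values were seen. Lpcat3, a phospholipid-remodelling enzyme, differed by 0.18 and Lpl, lipoprotein lipase, by −0.30, each with a limma adjusted p of 0.998.

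The genes that SREBPs drive mostly had positive differences. Both lists below were chosen with earlier results of these data known. The paper had already reported the called genes, from the same arrays, as upregulated targets of SREBP-1 or SREBP-2. The counts are therefore no independent evidence. All 15 SREBP-1 lipogenic genes had positive differences, with a median of 0.22, and 5 were called higher by the rank product: Fasn, fatty acid synthase (0.26, FDR 0.0992), Acacb, an acetyl-CoA carboxylase (0.35, FDR 0.0566), Fads2, a fatty acid desaturase (0.39, FDR 0.0244), Thrsp (0.22, FDR 0.0283) and Aacs, acetoacetyl-CoA synthetase (0.48, FDR 0.00338). A sixth, Acly, ATP citrate lyase, was called on another probe set (0.35, FDR 0.057). Over all genes, 0.264% were called higher by their brightest probe set, and 0.775% were called in either direction on any probe set. Of all probe sets, 52.9% had negative differences. limma called none of the 15 at an adjusted p under 0.1, and 2 had an unadjusted p under 0.05, against 3.65% of all probe sets. Its 95% interval held 0 for Fasn (−0.25 to 0.76), Acacb (−0.02 to 0.72) and Thrsp (−0.56 to 1.00). It also held 0 for Aacs (−0.17 to 1.14) and the called Acly probe set (−0.02 to 0.72), and left 0 out for Fads2 (0.16 to 0.63). Of 17 measured SREBP-2 sterol genes, 15 had positive and 2 negative differences, with a median of 0.15. The rank product called Fdps (0.34, FDR 0.0423) and Dhcr7 (0.35, FDR 0.0581) higher, and Idi1 on another probe set (0.40, FDR 0.028), all enzymes of sterol synthesis. limma called 0 of the 17, with 3 at an unadjusted p under 0.05. Its 95% interval held 0 for Fdps (−0.13 to 0.81) and left 0 out for Dhcr7 (0.04 to 0.66) and the called Idi1 probe set (0.06 to 0.73). The number of lipogenic genes called was 0 without PD replicate 3 or 4 and 1 without PD replicate 2, and it was 3 when CD replicate 2 was left out. The number of sterol genes called was 0 without PD replicate 2, 3 or 4 or CD replicate 2, and 4 without PD replicate 1 or CD replicate 4.

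Over the 8 mice the r with both target means was lower for Srebf1 than for Insig1. That contrast was not tested, and none of these relations passed the correction. Relative to the mean of all mice, the lipogenic mean was −0.31, 0.17, 0.38 and 0.22 in the PD mice, against −0.11, −0.25, −0.02 and −0.08 in the CD mice. The sterol mean was −0.18, 0.15, 0.21 and 0.11 in the PD mice, against −0.02, −0.13, −0.07 and −0.07 in the CD mice. PD replicate 1 was the lowest of all mice in both means and in Insig1, and the other 3 PD mice were above all CD mice in both means. PD replicate 4 had the lowest Srebf1 value of all mice, 11.73 against 11.74 in PD replicate 1, with target means above every CD mouse. Srebf1 and the lipogenic mean had r = 0.506 (exact permutation p = 0.197, adjusted p = 0.679) and rho = 0.381 (exact permutation p = 0.36, adjusted p = 0.782), and r = −0.03 without PD replicates 2 and 3. Within diets this r was 0.575 in PD and 0.379 in CD mice, against 0.882 and 0.237 for Insig1. After each diet's mean had been removed, it was 0.542 for Srebf1 and 0.812 for Insig1.

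Array medians lay between 7.09 and 7.16, and pairs of arrays correlated between 0.991 and 0.996 across probe sets. All 7 hepatocyte markers measured were bright, the dimmest being above 98.2% of all probe sets, and none of the 4 cholangiocyte, 3 T and B cell, 3 neutrophil or 2 adipocyte markers was in the brightest 25% of probe sets. The only pancreas marker measured, Cela1, was above 89.0% of probe sets, and its values relative to all mice ran between −0.19 and 0.33 in PD mice, against −0.22 to 0.18 in CD mice. Of the 6 Kupffer cell and macrophage markers 4 were in the brightest 25%, of the 6 stellate cell and fibroblast markers 3, and of the 5 endothelial markers 3. Of the hepatocyte markers, Tat was called lower in PD mice, and the median difference of the 7 was −0.00. The 6 stellate cell and fibroblast markers had a median difference of 0.12, and their mean relative to all mice ran between 0.05 and 0.10 in PD mice, against −0.21 to 0.11 in CD mice. Col3a1 was called higher (0.37), while Col1a1 (−0.02) and Des (−0.01) were lower. Over all genes, 0.621% were called. Median differences were −0.11 for neutrophil, −0.07 for T and B cell and −0.02 for Kupffer cell and macrophage markers. They were −0.01 for cholangiocyte, −0.00 for endothelial and 0.01 for adipocyte markers. None of these was called. The part of these cell types in the values above was not tested.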

How the data were processed

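The deposited values are model-based expression indices on the log2 scale, which the authors made in R (version 2.7.2 in the submitters' processing notes), and they were used unaltered. The authors' normalization between arrays was not given in the sources used here. Without 64 controls, 45037 probe sets were tested. The annotation paired 34945 of them with a single symbol and 932 with more than 1, and left 9160 unnamed. Arrays hold no reads, so precision comes from the spread between the 4 mice per diet.

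The rank product (16 PD-CD pairs of arrays, 1000 permutations, FDR under 0.1) was computed in Python 3.11.15, and limma (version 3.58.1, run in R 4.3.3) gave the SE, 95% intervals and p-values adjusted by the Benjamini-Hochberg method over all probe sets. Both were tested on simulated data. Single values were compared by two-sided exact permutation tests over the 8 mice, and relations between genes by exact permutation of the pairings, adjusted over 35 relations. In lists and relations a gene was represented by its probe set of highest mean.

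The members, lists and tests were chosen with earlier results of these data known. Named were all members, list genes called, a fixed set of pathway genes (Mbtps2, Rxra, Lpin1, Fasn and others) and the 3 probe sets most like Srebf1 and Insig1. Genes named outside this rule are said to be so, except some cell type markers. Tat and Col3a1 were named because they were called, Col1a1 and Des as the lower markers of the Col3a1 list, and Cela1 as the only pancreas marker measured. Of 104 list entries, 95 were matched to a single symbol. The other entries, some of them fixed as named genes, were not analysed here.

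Alternatives were quantile normalization, median centring, 16 added before the log2, dim probe sets left out, _s_at and _x_at probe sets left out, an FDR of 0.05, 100 permutations, PD arrays against the mean CD array, limma variants, the methods' t-test, a replicate block, the mean of a gene's probe sets and leaving out each mouse. Leaving out each mouse for the list counts was added after seeing the data.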

Additional observations from a re-analysis of the deposited data

Results flagged for a closer look

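In 26 groups of 4 mice (13 probe sets in both diets), 2 values lay far from the other 3 by Dixon's 95% criterion, a criterion that about 5% of groups pass by chance. In Srebf2 probe set 1452174_at, PD replicate 4 read 7.77, against 7.68 to 7.69 in the other PD mice. In Mbtps1 probe set 1431386_s_at, CD replicate 3 read 7.04, against 7.14 to 7.16 in the other CD mice. Neither probe set passed a test of the diet.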

How the results depend on the processing

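Of 235 alternative values of the 13 member probe sets, 219 kept their direction and remained uncalled, 15 turned sign and 1 passed a threshold. The value that passed was that of Mbtps1 1431385_a_at in the methods' t-test without adjustment, which did not pass after adjustment. Under limma, its variants, the replicate block and the t-test the difference is the same by construction. The same holds where only other probe sets were left out, so under these settings the direction could not turn. All 15 turns of sign came from leaving out 1 mouse. Over these the difference ran between −0.084 and 0.14 for Srebf1, −0.087 and 0.18 for Insig1, −0.026 and 0.047 for Srebf2 1426744_at, −0.037 and 0.036 for Scap 1442885_at and −0.049 and 0.020 for Mbtps1 1448240_at. For 1448240_at the turns came without CD replicate 3 or 4. Without 1 mouse no member was called, with a lowest FDR of 0.105.

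Over all probe sets, the count called higher in PD mice was 158 against the mean CD array and between 27 and 190 with 1 mouse left out, against 90 in all mice. The count called lower was 56 at an FDR under 0.05, 0 against the mean CD array and between 16 and 209 with 1 mouse left out, against 117. limma called 0, and between 0 and 1 with 1 mouse left out. The methods' t-test passed 1711 without adjustment and 0 after Benjamini-Hochberg adjustment. With 1 mouse left out, the lipogenic genes called numbered between 0 and 7 and the sterol genes called between 0 and 4, and with any probe set counted they numbered 6 and 3. The cause of these shifts was not tested.

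Across all probe sets, deviations of same-numbered mice correlated between −0.06 and −0.00. A value over all probe sets cannot show whether the replicate numbers pair the mice for single genes, which was not tested. By 1417982_at, Insig2 ran highest in replicate 1, then 3, 4 and 2 in both diets. By 1417980_a_at the order was 1, 4, 3 and 2 in PD mice and 1, 3, 2 and 4 in CD mice. With the replicate block limma called 0 probe sets and no member. The block lowered the unadjusted limma p of Insig2 1417981_at to 0.0274, against 0.277 without it, and that of Insig2 1417982_at to 0.0377, against 0.394. For Insig2 1417980_a_at the unadjusted limma p was 0.0882 with the block, against 0.298 without it. The adjusted limma p of all 3 was 0.99993 with the block.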
